A study of Mus musculus with 4 samples.

Results

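The genes described here encode the liver machinery that builds and breaks down glycogen. They are 9 of the 35739 genes in the table of transcript levels and were picked by symbol: the synthesis genes *Gys2*, *Gyg1*, *Gbe1* and *Ugp2*, the breakdown genes *Pygl* and *Phka2*, and the genes *Ppp1r3b*, *Ppp1r3c* and *Ppp1r3g* for subunits that bring protein phosphatase 1 (PP1) to glycogen. All 9 symbols had a row, and all 9 genes passed the filter of a mean of at least 1 TPM (a level corrected for transcript length and scaled to a fixed total per library). RNA-seq of liver was done in WT mice (replicates 2 and 3) and in *Usp21* KO mice (replicates 1 and 3), with 1 library per mouse. *Usp21* encodes a deubiquitylase, an enzyme that removes ubiquitin from proteins. The KO mice lacked *Usp21* in the whole body, so a difference in liver need not arise in liver cells. The allele came from targeted 129/Sv ES cells: Flp recombinase removed the selection cassette and Cre recombinase then removed exons 3 and 4. WT mice were littermates on a mixed B6 × 129/Sv background, and both genotypes were 10 to 11 weeks old and ate a normal diet. Sex, hour of collection and feeding state at collection were not given in the sources used here.

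Glycogen is the branched glucose polymer in which hepatocytes store sugar after a meal, and from which they release glucose between meals. Glycogen synthase extends the chains with glucose from UDP-glucose, and glycogen phosphorylase cuts glucose off the chain ends as glucose-1-phosphate. Phosphorylation switches the synthase off and the phosphorylase on, PP1 reverses both, and the targeting subunits hold PP1 at the glycogen particle, so much of the control acts on the proteins and is not seen in transcript levels.

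The coding stretches that carry this switch are shown first, because the *Ppp1r3* genes share them while their transcript levels followed different courses across the livers. Each is 30 bases from the coding strand, read from the GENCODE M21 transcripts of the mouse genome (build GRCm38). For the subunit genes the capitals mark the 4 codons of the PP1-binding motif known as RVxF, the short docking site for PP1. *Ppp1r3e*, another targeting subunit gene of liver that is not among the 9 genes, is shown for comparison.
Ppp1r3b: gtgaagaagCGGGTGTCCTTCgccgacaac
Ppp1r3c: gccaagaagCGGGTCGTGTTTgcggactcc
Ppp1r3g: tgtaagaagCGCGTGCAGTTCgccgactcc
Ppp1r3e: actcgcaagAGAGTGCGTTTCgccgacgcg
These stretches lie at chr8:35384180-35384209 (+), chr19:36734099-36734128 (-), chr13:35968950-35968979 (+) and chr14:54877025-54877054 (-), in the order shown, each within 1 coding exon. The first codon in capitals is codon 61 of 284 in *Ppp1r3b*, 84 of 317 in *Ppp1r3c*, 121 of 347 in *Ppp1r3g* and 87 of 279 in *Ppp1r3e*, and the motif occurred once in each reading frame. *Ppp1r3b* matched *Ppp1r3c* at 20 of 30 bases and *Ppp1r3g* at 21 of 30, and *Ppp1r3e* matched the 3 other genes at 15 to 19 of 30.
For the phosphorylase gene the capitals mark the codon of the serine that phosphorylase kinase phosphorylates, which is codon 15 of 850, counted from the start codon.
Pygl: aagcgacggcagatcAGCatccgaggcatc
This stretch lies at chr12:70227527-70227556 (-).

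TPM carries no information on sequencing depth. A second table, of CPM (counts scaled to library size), allowed whole reads to be recovered, and these came to 102898 to 148164 per library. That table held almost none of the 9 genes: 7 were at 0 reads in all 4 libraries, *Gbe1* had 1 read in WT replicate 3, and *Ppp1r3b* had 1 read in KO replicate 3. Of 682 genes at 100 TPM or more in every library, 428 had no CPM value above 0, so this table's zeros were not read as absence of the transcript. *Usp21* itself stood at 4.07 and 6.29 TPM in WT livers and at 1.64 and 2.93 TPM in KO livers, lower in both KO libraries but short of the adjusted threshold (adjusted p = 0.464, limma). Reads from the exons that remain still count towards *Usp21*, and none of the 9 genes lies on its chromosome, chromosome 1. Hepatocyte markers summed to 51672 to 74906 TPM. Of the skeletal muscle markers, whose tissue holds its own synthase and phosphorylase, 3 of 5 were at 0 in all libraries and the sum was 0.470 to 1.78 TPM.

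Across the 9 genes, the levels in TPM spanned more than 2 orders of magnitude. *Ugp2* had the highest mean over the 4 libraries (224 TPM ± 21.9, SD, n = 4) and *Pygl* the next (105 TPM ± 6.53), and every value of *Ugp2* lay above every value of *Pygl*, which in turn lay above every value of *Gys2*. *Gys2* (48.6 TPM ± 10.98), *Gbe1* (39.7 TPM ± 7.36), *Ppp1r3b* (38.8 TPM ± 21.3) and *Ppp1r3c* (12.9 TPM ± 3.61) followed, and each overlapped the next in this order. Every value of *Ppp1r3c* lay above those of *Phka2* (3.49 TPM ± 0.912), *Gyg1* (2.77 TPM ± 0.370) and *Ppp1r3g* (1.55 TPM ± 1.31), which again overlapped their neighbours. The relative spread over livers was widest in *Ppp1r3g* and *Ppp1r3b* and narrowest in *Pygl*, as the plot of levels by library shows.

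**Figure D1:**
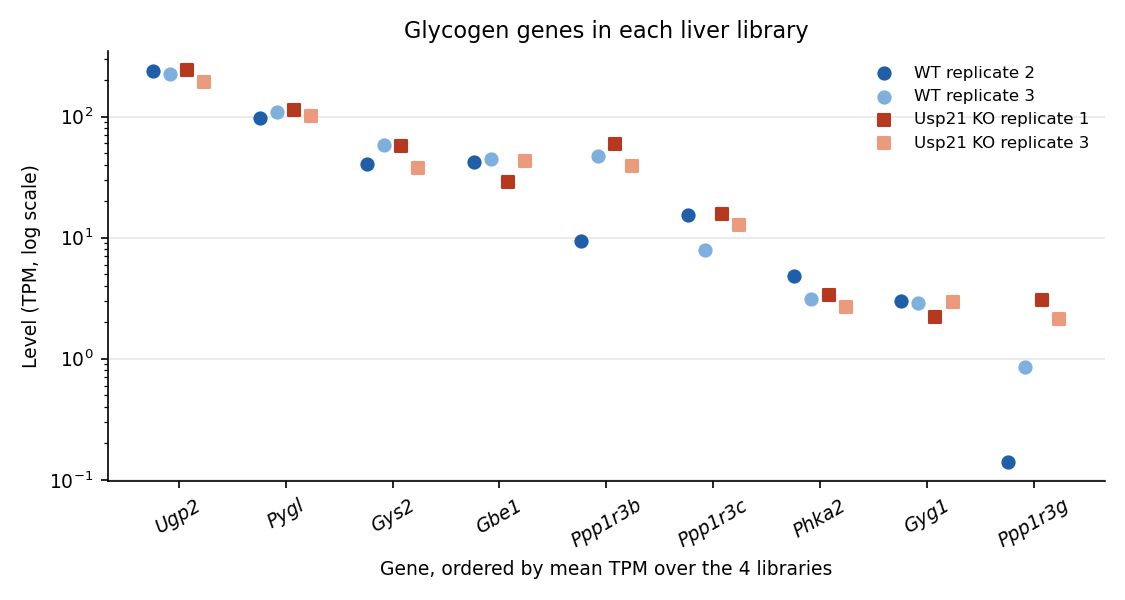
Level of each of the 9 genes in each liver library, in TPM on a log axis, with 1 point per library (WT in blue, *Usp21* KO in red). The genes are in the order of their mean TPM over the 4 libraries. *Ppp1r3b* in WT replicate 2 (9.40 TPM) lies far below its 3 other libraries, and the KO points of *Ppp1r3g* (2.13 and 3.08 TPM) both lie above its WT points (0.141 and 0.861 TPM).

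The annotation gives all 9 as protein-coding genes, and coordinates below are those of the whole gene. *Ugp2*, *Pygl*, *Phka2*, *Ppp1r3b* and *Ppp1r3g* each overlap a gene on the opposite strand, whose transcripts may be mixed into the values if strand was not used. The first comparison asked whether the enzymes of glycogen synthesis differed between *Usp21* KO and WT liver. None of the 4 genes separated the genotypes in TPM as deposited, where their differences in log2(TPM + 1) lay between -0.29 and -0.08. Once the libraries were rescaled, *Gyg1*, *Gbe1* and *Ugp2* did, beside 43.1% (upper quartile) and 43.7% (median of ratios) of all tested genes. Because these are whole-liver RNA samples, fewer cells of a type and less RNA per cell cannot be told apart.

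*Gys2* encodes liver glycogen synthase, the enzyme that lengthens the chains. It (ENSMUSG00000030244) lies at chr6:142422613-142473109 (-) and measured 40.8 and 58.8 TPM in WT livers and 57.3 and 37.6 TPM in KO livers. Each genotype thus had 1 high and 1 low liver, and the groups overlapped. The difference of means, KO minus WT, was -0.08 in log2(TPM + 1) (SE 0.28, 95% interval -0.78 to 0.63; adjusted p = 0.931, limma).

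*Gyg1* encodes glycogenin, the protein that primes a new glycogen particle by attaching the first glucose units to itself. Its levels were 3.02 and 2.91 TPM in WT livers and 2.22 and 2.94 TPM in KO livers (ENSMUSG00000019528, chr3:20122084-20155317, -). KO replicate 1 was the lowest, and KO replicate 3 fell between the WT livers. The difference was -0.15 in log2(TPM + 1) (SE 0.25; adjusted p = 0.831, limma).

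*Gbe1* encodes the branching enzyme, which makes the side chains of the polymer. It stood at 42.0 and 44.7 TPM in WT livers and at 28.8 and 43.3 TPM in KO livers (ENSMUSG00000022707, chr16:70313949-70569716, +). The 3 higher livers were close to each other, with KO replicate 1 alone below them. The difference of -0.29 in log2(TPM + 1) (SE 0.24; adjusted p = 0.658, limma) rested on that liver and was -0.00138 without it.

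*Ugp2* encodes UDP-glucose pyrophosphorylase, which makes the UDP-glucose that the synthase uses and that glucuronidation also draws on. It was the most abundant of the 9 transcripts, at 236 and 226 TPM in WT livers and 241 and 193 TPM in KO livers (ENSMUSG00000001891, chr11:21321138-21371201, -). The KO livers held both the highest and the lowest value, so the groups overlapped. The difference was -0.10 in log2(TPM + 1) (SE 0.18; adjusted p = 0.849, limma), and its 95% interval of -0.56 to 0.36 contained no change of 2-fold in either direction.

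The second comparison concerned breakdown. *Pygl* encodes liver glycogen phosphorylase, whose serine codon is shown above, and it was the steadiest of the 9 genes. Its levels were 98.0 and 108 TPM in WT livers and 112 and 102 TPM in KO livers (ENSMUSG00000021069, chr12:70190811-70231488, -). The KO values began between the WT values and reached just above them. The difference was 0.05 in log2(TPM + 1) (SE 0.17, 95% interval -0.36 to 0.47; adjusted p = 0.916, limma), and its sign depended on how the libraries were scaled.

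*Phka2* encodes the liver form of the alpha subunit of phosphorylase kinase, the regulatory subunit of the enzyme that switches the phosphorylase on. It measured 4.79 and 3.09 TPM in WT livers and 3.38 and 2.70 TPM in KO livers (ENSMUSG00000031295, chrX:160502166-160598878, +). WT replicate 2 was highest, and KO replicate 1 lay between the WT livers. The difference was -0.28 in log2(TPM + 1) (SE 0.28; adjusted p = 0.723, limma), of which -0.02 was left without WT replicate 2.

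Within each liver, the level of the synthase transcript can be set against that of the phosphorylase, a ratio that no scaling of libraries changes. The ratio of *Gys2* to *Pygl* in TPM was 0.416 and 0.543 in WT and 0.509 and 0.370 in KO livers. *Pygl* was therefore the higher of the pair in all 4 livers, and the ratio overlapped between genotypes. The log2 ratio differed by -0.13, KO minus WT, which was less than the gap between the WT livers (0.38) or between the KO livers (0.46). The ratio of *Gbe1* to *Pygl* was 0.428, 0.413, 0.256 and 0.426 in WT replicates 2 and 3 and KO replicates 1 and 3, with KO replicate 1 again apart from the rest.

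**Figure D2:**
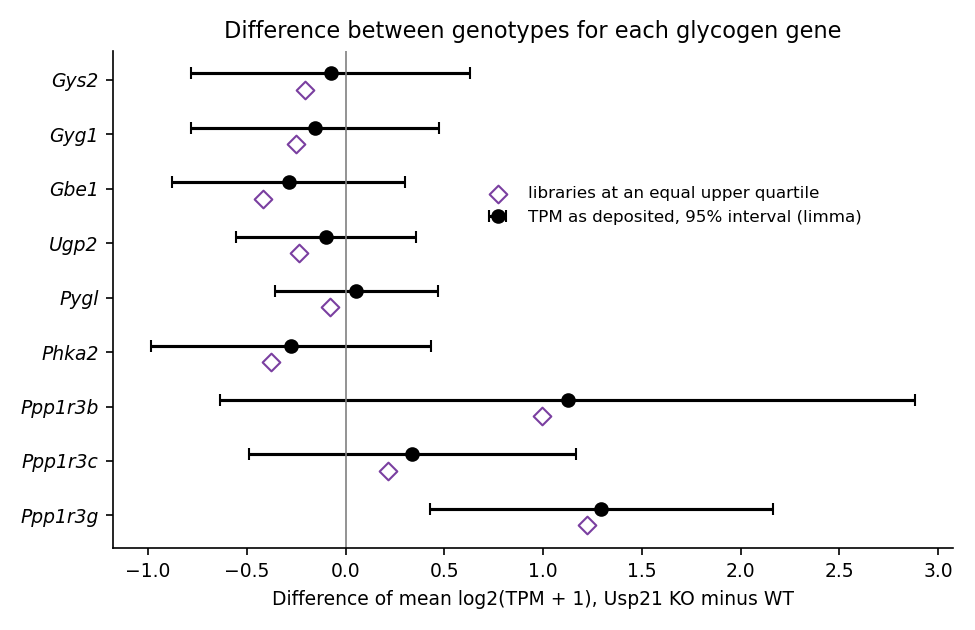
Difference of mean log2(TPM + 1), *Usp21* KO minus WT, for each of the 9 genes, with points for the estimate and bars for the 95% interval from limma. The intervals of the 6 synthesis and breakdown genes span 0 and are narrower than that of *Ppp1r3b* (-0.63 to 2.88). The interval of *Ppp1r3g* (0.43 to 2.16) lies above 0 with moderated variances and before adjustment over genes.

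The PP1 targeting subunits varied more. *Ppp1r3b* encodes the GL subunit, through which PP1 acts on glycogen synthase in liver. It (ENSMUSG00000046794) lies at chr8:35375739-35388139 (+) and measured 9.40 and 47.6 TPM in WT livers and 59.3 and 38.8 TPM in KO livers. WT replicate 2 was low, and WT replicate 3 fell between the KO livers. The difference was 1.12 in log2(TPM + 1), past 2-fold, but with an SE of 0.71 and an adjusted p of 0.571 (limma).
The gap between the WT livers was 2.22 in log2(TPM + 1), larger than in 99.2% of the tested genes, whose median gap was 0.24. The difference of *Ppp1r3b* was 0.01 when WT replicate 2 was left out and 2.24 when WT replicate 3 was left out (adjusted p = 0.611, limma). A single WT liver therefore decided this value.

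*Ppp1r3c* encodes the subunit also called PTG (protein targeting to glycogen), which binds synthase and phosphorylase as well as PP1. It ran the other way in the WT livers, at 15.2 TPM in replicate 2 and 7.86 TPM in replicate 3, and stood at 15.7 and 12.7 TPM in the KO livers (ENSMUSG00000067279, chr19:36731731-36736653, -). WT replicate 3 was the low liver here, and WT replicate 2 lay between the KO livers. The difference was 0.34 in log2(TPM + 1) (SE 0.33; adjusted p = 0.708, limma), and leaving out WT replicate 2 gave 0.77 while leaving out WT replicate 3 gave -0.10.

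*Ppp1r3g* encodes a targeting subunit of liver known for a transcript that rises in fasting. It was the least abundant of the 9 genes, at 0.141 and 0.861 TPM in WT livers and 3.08 and 2.13 TPM in KO livers (ENSMUSG00000050423, chr13:35958839-35970388, +). With a WT mean of 0.501 TPM, it passed the filter of 1 TPM only through the KO livers. Both KO livers lay above both WT livers, as they did for 34.4% of the tested genes, and the mean in TPM was 5.20-fold that of WT. On the log2(TPM + 1) scale, which shrinks changes at low levels, the difference was 1.29 (SE 0.35, 95% interval 0.43 to 2.16; adjusted p = 0.464, limma), so it did not pass the threshold over all genes.
The difference of *Ppp1r3g* stayed between 0.94 and 1.65 whichever library was left out, and with a pseudocount of 0.1 or 5 in place of 1 it was 2.47 or 0.47. At these levels the number of reads behind each value is unknown. An exact permutation test of 2 against 2 livers could not go below p = 0.333.

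Summed over the targeting subunits, the level was 26.8 and 58.6 TPM in WT livers and 81.7 and 59.3 TPM in KO livers. Most of this spread came from *Ppp1r3b*, which made up 35.1% and 81.1% of the sum in WT and 72.6% and 65.4% in KO livers. *Ppp1r3c* made up 56.9% and 13.4% in WT and 19.3% and 21.4% in KO livers.
WT replicate 2 was thus the 1 liver in which *Ppp1r3c* was the larger share, and the 3 other livers had *Ppp1r3b* ahead. *Ppp1r3e* held 7.05% and 3.97% in WT and 3.78% and 9.55% in KO livers. *Ppp1r3g* held 0.527% and 1.47% in WT and 3.77% and 3.59% in KO livers. These shares restate its levels, which passed the filter only through the KO livers, and are no separate support. In level, *Ppp1r3e* was higher in both KO livers (3.08 and 5.66 TPM, against 1.89 and 2.33 TPM in WT livers), as were 34.4% of the tested genes. Its difference was 0.75 in log2(TPM + 1) (SE 0.32, adjusted p = 0.479, limma), or 0.40 without KO replicate 3. *Ppp1r3a*, the muscle subunit, was listed at 0 in all 4 livers.

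**Figure D3:**
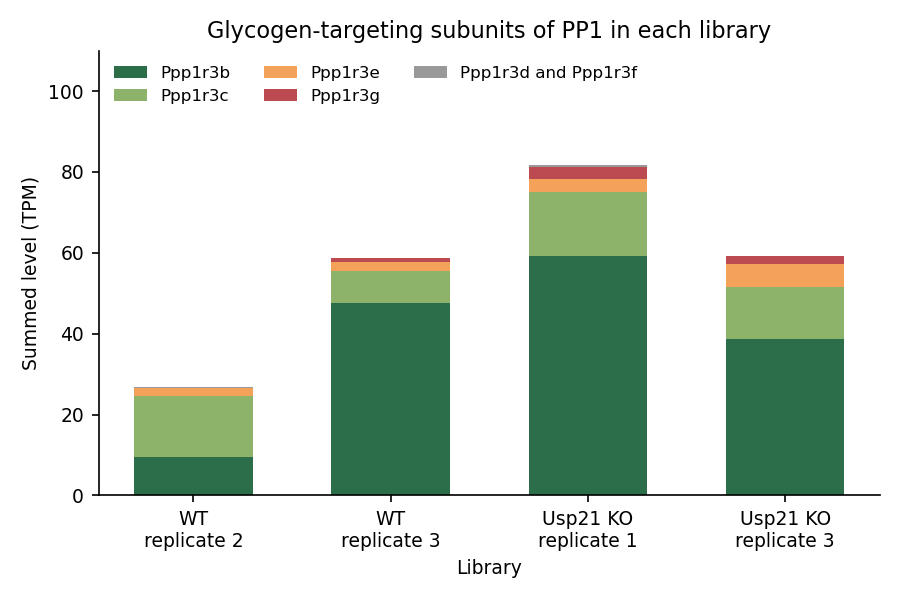
Composition of the summed TPM of the PP1 targeting subunits in each liver library, as stacked bars from 0 with 1 colour per subunit. The bar of WT replicate 2 (26.8 TPM) is the shortest and mostly *Ppp1r3c*, while *Ppp1r3b* fills most of the bars of the 3 other libraries (58.6 to 81.7 TPM).

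Counted together, 1 of the 9 genes (11.1%) had groups that did not overlap, compared with 45.3% of the 9581 tested genes. A difference of at least 2-fold was found for 2 of the 9 genes (*Ppp1r3b* and *Ppp1r3g*), both higher in KO, and for 3.68% of all tested genes (2.59% for higher ones alone). Before adjustment, 1 of the 9 and 10.5% of all had a p under 0.05 (limma). After adjustment, 0 of the 9 and 0.0835% of all did. The non-overlapping gene and the gene with a p under 0.05 were both *Ppp1r3g*, which passed the filter only through its KO livers. By the other tools, edgeR and DESeq2 on the recovered reads, the 9 genes could not be judged, since 7 had no read.
The means were higher in KO for 4 genes and lower for 5, whereas 66.7% of all tested genes were higher and 33.3% lower in KO. The median difference in log2(TPM + 1) was -0.08 over the 9 genes and 0.15 over all tested genes, while the median size of the difference was 0.28 and 0.26.

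That general excess of higher values depended on the scaling of the libraries, and so did the place of the glycogen enzymes. Scaling to an equal upper quartile lowered the median of all genes by 0.116, to 0.03, and the share of higher genes among those changed at least 2-fold went from 70.3% to 55.7%. Under that scaling *Gyg1* (-0.25), *Gbe1* (-0.42), *Ugp2* (-0.23) and *Phka2* (-0.38) were lower in both KO livers than in both WT livers, and *Ppp1r3g* (1.22) was higher.
The non-overlapping genes were then 5 of 9, beside 43.1% of all tested genes. *Gys2* (-0.21) and *Pygl* (-0.08) still overlapped, the latter with its sign turned. *Ppp1r3b* was at 0.995, just under the 2-fold threshold, and *Ppp1r3c* at 0.21, and both still overlapped. Scaling to an equal median of ratios shifted the median of all genes by 0.166, to -0.02. Then 6 of 9 genes were non-overlapping, beside 43.7% of all, and 48.1% of the 2-fold changes were higher. *Ppp1r3b* was then at 0.938, so under either scaling only *Ppp1r3g* of the 9 genes stayed past 2-fold. The lowest adjusted p of any of the 9 genes under any setting was 0.403 (limma).

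**Figure D4:**
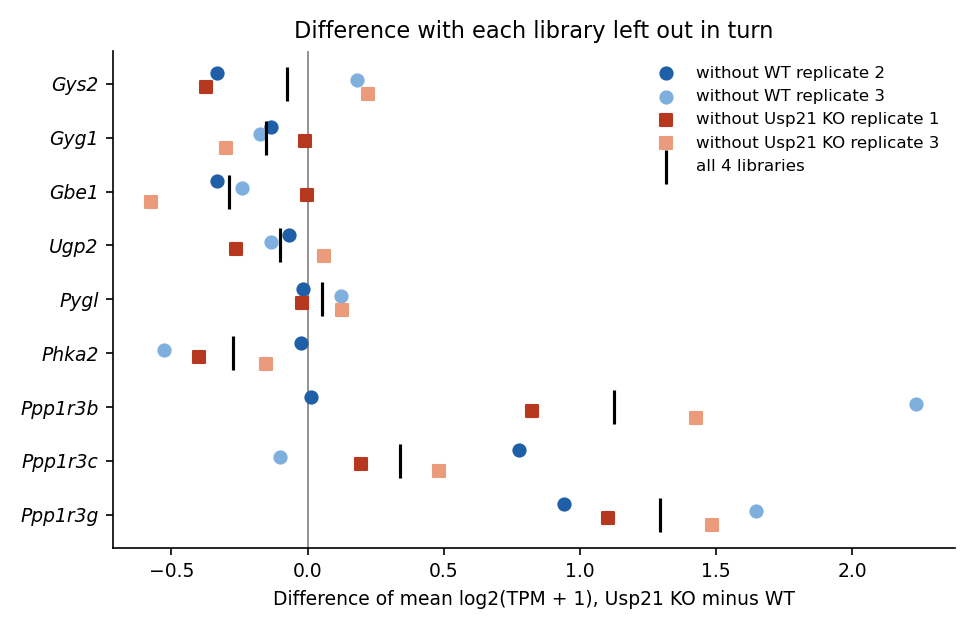
Difference of mean log2(TPM + 1), *Usp21* KO minus WT, for each of the 9 genes with 1 library left out at a time (coloured points) and with all 4 libraries (black line). *Ppp1r3g* stays above 0.94, *Ppp1r3b* spans 0.01 to 2.24 according to which WT library is left out, and *Gys2*, *Ugp2*, *Pygl* and *Ppp1r3c* cross 0.

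Beyond the 9 genes, 52 other genes of glycogen metabolism were listed, of which 38 passed the filter. Of these, 0 had an adjusted p under 0.05 (limma) and 5 an unadjusted one, beside 10.5% of all tested genes, with non-overlapping groups for 21 (55.3%, beside 45.3% of all tested genes). Their median difference in log2(TPM + 1) was 0.04.
None of the tested genes for other synthesis steps (4), PP1 catalytic and regulatory subunits (5), other breakdown steps (4) or phosphorylase kinase and calmodulin (5) had an unadjusted p under 0.05. The 5 genes with one were 2 of 4 for glucose release and entry and 3 of 16 regulators. Over the 38 genes this share is near that of all tested genes, so the 5 are given as values under the naming rule and not as a result about glycogen genes.

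*G6pc*, which encodes the catalytic subunit of glucose-6-phosphatase, the last step of glucose release from glycogen, stood at 22.4 and 31.6 TPM in WT livers and at 56.4 and 173 TPM in KO livers. Both KO livers were higher, KO replicate 3 by far the most, and the difference in log2(TPM + 1) was 1.85 (SE 0.52; adjusted p = 0.464, limma) or 1.05 without that liver. *Slc2a2*, which encodes the glucose transporter GLUT2 of the hepatocyte surface, stood at 105 and 69.3 TPM in WT livers and at 30.99 and 52.8 TPM in KO livers.
Both KO livers were lower in *Slc2a2*, with a difference of -1.06 (SE 0.33; adjusted p = 0.464, limma), or -0.68 without KO replicate 1. The insulin receptor gene *Insr* was at 4.73 and 5.60 TPM in WT livers and at 10.2 and 8.56 TPM in KO livers (0.75, SE 0.23). The receptor substrate gene *Irs1* was at 1.01 and 0.806 TPM in WT livers and at 2.19 and 2.22 TPM in KO livers (0.75, SE 0.26).
The other substrate gene, *Irs2*, was at 1.08 and 0.656 TPM in WT livers and at 2.16 and 3.09 TPM in KO livers (0.95, SE 0.29). All 3 of these insulin signalling genes were higher in both KO livers, and none passed the adjusted threshold (adjusted p = 0.464 for each, limma). *Irs1* and *Irs2* had WT means of 0.907 and 0.868 TPM and passed the filter only through the KO livers. The 5 named genes were picked by their p in these same livers, so keeping non-overlapping groups after rescaling adds no support. They kept them under both other scalings, where 43.1% and 43.7% of all tested genes did not overlap.

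**Figure D5:**
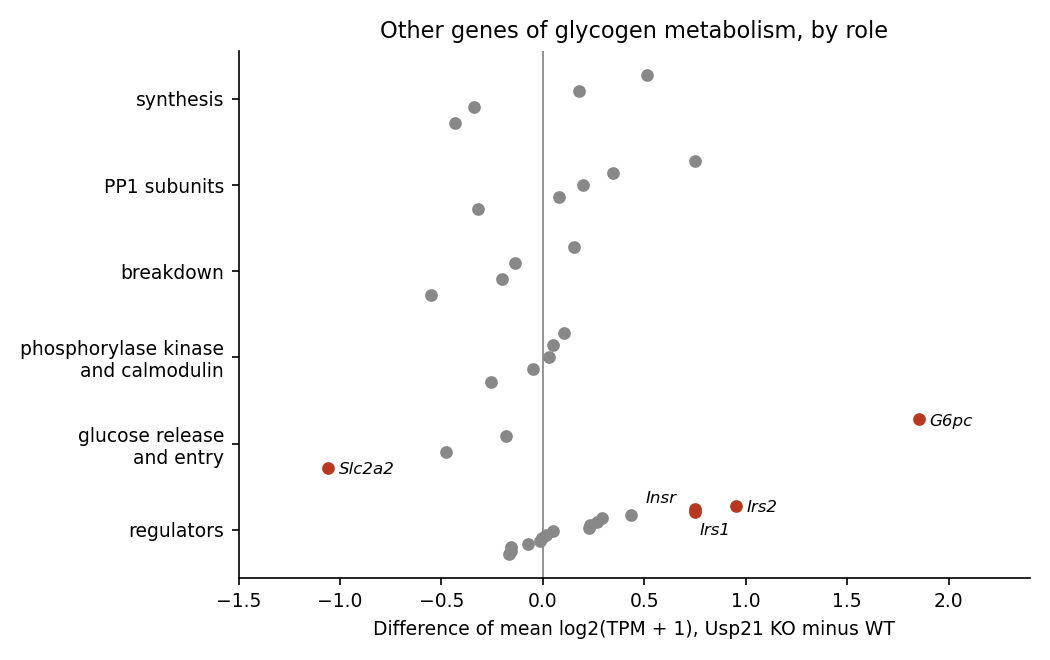
Difference of mean log2(TPM + 1), *Usp21* KO minus WT, for the 38 tested partner genes of glycogen metabolism, grouped by role, with 1 point per gene. Red points mark the 5 genes with an unadjusted p under 0.05, of which *G6pc* (1.85) is farthest above 0 and *Slc2a2* (-1.06) farthest below.

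Feeding state and hour of day both act on glycogen genes, and genes that mark each were compared between the same livers. Of 9 tested fasting-response genes, 8 were higher in KO by mean, 7 of them without overlap (beside 66.7% and 34.4% of all tested genes, shares that depend on the scaling), and the median difference in log2(TPM + 1) was 0.79. Of 8 tested fed-response genes, 3 were higher and 5 lower by mean (beside 33.3% lower of all tested genes), with a median of -0.18. The groups did not overlap for 2 of the 8, both lower in KO, beside 10.9% of all.
Of the clock genes that cycle in phase with *Arntl*, 3 of 3 tested were higher in both KO livers (median 1.69; 34.4% of all tested genes), and of those that cycle opposite to it 6 of 7 were lower in both (median -0.86; 10.9% of all), with *Dbp* past the adjusted threshold (adjusted p = 0.0193, limma). Among the genes counted, *Ppargc1a* and *Arntl* had WT means of 0.582 and 0.242 TPM and passed the filter only through the KO livers. *Ciart* (KO mean 0.247 TPM) passed only through the WT livers. The part of feeding state and of clock phase in the values of the 9 genes was not tested.
Markers of hepatocytes, Kupffer cells (53.6 to 140 TPM in sum), sinusoidal endothelium (31.6 to 49.6 TPM) and red blood cells (467 to 650 TPM) overlapped between the genotypes in their sums. Stellate cell markers summed to 67.6 and 50.4 TPM in WT livers and to 94.6 and 73.5 TPM in KO livers. Cholangiocyte markers summed to 1.39 and 3.19 TPM in WT livers and to 4.56 and 3.82 TPM in KO livers. Both sums were higher in KO, but not every marker was. Of 4 tested stellate cell markers, 2 did not overlap, both higher in KO (beside 34.4% of all tested genes). Only 1 of 4 cholangiocyte markers passed the filter, *Sox9*, and it overlapped. Of the others, *Krt19* was higher in both KO livers and *Krt7* was lower in KO by mean. The pancreas list (42.2 and 30.7 TPM in WT, 28.7 and 30.6 TPM in KO) was *Cela1* alone, with 3 of 4 markers at 0, and 3 of 4 adipocyte markers were at 0. The part of these cells in the values of the 9 genes was not tested.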

How the data were processed

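Liver RNA of 2 WT and 2 *Usp21* KO mice was sequenced, and groups were taken from the labels. The authors estimated transcript levels with Salmon against mm10 and deposited them per Ensembl gene as TPM, the values used here. They also deposited TMM-normalized CPM, a signal made from HTSeq counts with edgeR, whose values came out as whole reads in 100% of cases within a tolerance of 0.02 reads (148164 and 110427 in WT replicates 2 and 3, 145306 and 102898 in KO replicates 1 and 3). Their versions, the annotation release and the strand setting are not given in the sources used here. Log-scale copies of both tables were not used, and the number of sample columns set aside was 0. Partek and deepTools are named in the submitters' processing notes without a role. The authors' published text describes an ANOVA in Partek for differential expression.

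The 9 genes, the other gene lists and the tests were chosen with earlier results of these data known. Genes averaging 1 TPM or more (9581) were tested on log2(TPM + 1) with limma 3.58.1 in R 4.3.3 (eBayes with a variance trend, prior degrees of freedom 3.62), two-sided, with Benjamini-Hochberg adjustment over all tested genes at a threshold of 0.05. No batch is given, and the litter of each mouse is not named, so neither was modelled. P-values rest on the spread between 2 mice per genotype, moderated towards the spread of all tested genes at like levels. The unadjusted p of *Ppp1r3g* was 0.0113 with moderation (limma) and 0.0840 without it (t-test on the linear fit). A 2-fold change is a difference of at least 1 in mean log2(TPM + 1), which understates changes of low genes. Other genes were named where their unadjusted p was under 0.05 or their change at least 2-fold, and the genes most like a member by the rule given with them. *Gyg1* is named *Gyg* in GENCODE M21, and was matched by identifier, as were *G6pc* and *Arntl*.

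Alternatives were pseudocounts of 0.1 and 5, no filter or a mean of at least 5 TPM, upper quartile and median of ratios scaling, no moderation or no trend, the CPM values, and each library left out in turn. EdgeR 4.0.16 (quasi-likelihood; 12 genes with an adjusted p under 0.05) and DESeq2 1.42.0 (1 gene) on the recovered reads were added after seeing the data. The scripts were tested on simulated data. Of genes given a change of 1 in log2 there, 0% had an adjusted p under 0.05 (limma). At changes of 2 and 3, 86% and 96.5% did. False calls numbered 0, 16 and 10 for changes of 1, 2 and 3.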

Additional observations from a re-analysis of the deposited data

How the results depend on the processing

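With 2 livers per genotype and an unknown read number behind each TPM, the 95% intervals of the 9 genes are wide, and a p short of the threshold does not show that levels were equal. No paired analysis was possible, because the litter of each mouse is not given in the sources used here. Over 107 repeats of the 9 genes' differences under other settings, 99 kept direction and side of the threshold and 8 reversed. Repeats that changed only the filter or the moderation gave the same difference by construction and could not reverse. None of the 9 genes passed the threshold in the main fit or in any repeat. The count of 99 is therefore no measure of stability. *Pygl* (0.05) was -0.0801 under upper quartile and -0.14 under median of ratios scaling. On leaving out single libraries, the lone liver of a genotype being assumed to vary like the others, *Gys2* spanned -0.37 to 0.22 (0.18 without WT replicate 3, 0.22 without KO replicate 3), *Ugp2* -0.26 to 0.0607 (without KO replicate 3), *Pygl* -0.0202 (without KO replicate 1; -0.02 without WT replicate 2) to 0.13, and *Ppp1r3c* -0.10 (without WT replicate 3) to 0.77. The log2 ratio of *Gys2* to *Pygl* spanned -0.36 to 0.10 around -0.13.

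Non-overlapping genes among the 9 numbered 1 as reported, 5 under upper quartile and 6 under median of ratios scaling, 0 of 6 with a mean of at least 5 TPM (*Gyg1*, *Phka2* and *Ppp1r3g* were then not tested), 0 of 2 in the CPM values, and 4 to 7 with a library left out, where a lone liver makes separation easier. Genes with an adjusted p under 0.05 numbered 8 in limma, 4 without the filter, 1 in the CPM values, 0 without moderation (806 at an unadjusted p under 0.05), 12 in edgeR, 1 in DESeq2, and 0 to 7 with a library left out (0 without KO replicate 1, with 699 at an unadjusted p under 0.05). Genes changed at least 2-fold numbered 353, and 820 with a pseudocount of 0.1, 115 with 5, 203 with a mean of at least 5 TPM, 3134 in the CPM values and 482 to 708 with a library left out. The causes of these shifts were not tested, other than that fewer genes or libraries entered some of the fits. The CPM values gave no value for the 7 genes at 0, the ratio or the subunit shares.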

Other observations

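For the 3 genes with the widest differences, tested genes averaging 10 TPM or more were ranked by how closely their course over the 4 livers followed, as the root mean square difference of centred log2(TPM + 1). *Ppp1r3g* was followed most closely by *Vps13d* (0.0510; 7.19 and 11.3 TPM in WT, 25.98 and 20.7 TPM in KO livers), a lipid transfer protein gene, and *Ythdc1* (0.108), which encodes a nuclear reader of methylated RNA, among 4025 genes. *Ppp1r3b* was followed by *Slc10a2* (0.198; 3.36 and 13.4 TPM in WT, 21.1 and 11.4 TPM in KO livers), a bile acid transporter gene, and *Mup21* (0.227), a major urinary protein gene, among 4024. Both shared the low value of WT replicate 2. *Ppp1r3c* was followed by *Hsd3b5* (0.0323; 149 and 82.3 TPM in WT, 151 and 121 TPM in KO livers), a steroid dehydrogenase gene, and *Dlat* (0.0385), which encodes a subunit of pyruvate dehydrogenase, with WT replicate 3 the lowest liver for each. These are descriptions over 4 livers, with no test. The likeness of *Ppp1r3g* also rests on the pseudocount of 1, as log2(TPM + 1) shrinks its 21.8-fold range in TPM.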
